A study of Mus musculus with 15 samples.

Results

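The messenger RNA levels of 9 proneural genes of the basic helix-loop-helix (bHLH) class were measured in cells purified from mouse cerebellum: Atoh1, Neurod1, Neurod2, Neurod6, Nhlh1, Nhlh2, Neurog1, Neurog2 and Ptf1a. They were chosen by name, out of 21889 genes in the count tables. All 9 passed the filter on low counts, which left 15259 genes to test. There were 15 RNA-seq libraries, 3 in each of 5 groups. Granule neuron precursors, proliferating progenitors of cerebellar granule neurons, came from E15.5 embryos with the genotype label Math1-GFP and, as WT, from P1, P7 and P14 mice. Medulloblastoma cells (MB), from a tumour of the cerebellum, came from Ptch1 heterozygous mice, with no age label. Ptch1 encodes the receptor that holds Sonic hedgehog signalling in check. All groups were enriched on Percoll, a density fractionation that is not a sort on a marker. Math1 is an older name of Atoh1. The labels do not say what the GFP allele contains, whether the cells were selected by GFP, or whether the allele adds reads to Atoh1, so at E15.5 age and genotype cannot be told apart. The labels also do not say whether replicates came from separate animals, so p-values measure only the spread between these libraries.

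Proneural bHLH proteins bind the DNA sequence called the E-box as dimers with widely expressed E proteins, and Id proteins take E proteins away from them. In the developing cerebellum Atoh1 marks the rhombic lip and the granule neuron precursors, which need it. Ptf1a marks the ventricular zone, from which the GABAergic neurons arise. Neurod1 acts further along the granule lineage, where it is needed for granule neurons to form and survive.

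The libraries held 12597472 to 43443132 counts in genes. P1 replicate 3 stood apart: the summed level of 6 oligodendrocyte markers spanned 142 to 3913 CPM (counts scaled to library size) over the P1 libraries, with this library at the top, against 747 to 1766 at P7 and 6323 to 6875 at P14, where each library held more than this one. Genes of mature granule neurons were high in it as well. Gabra6 was at 102 CPM, against 1.12 and 12.5 in P1 replicates 1 and 2, and Cbln3 at 159 CPM, against 5.45 and 21.6. Both values lay above every P7 library. A counting difference split the libraries into sets, since of the Tsnax reads in the transcript table no more than 0.273% were in the gene table for MB replicate 1, E15.5 replicates 1 and 3 and each P7 library, against at least 92.4% in the other 9. The 9 proneural genes did not show this difference: in every library their gene counts were 93.7% to 101% of their transcript counts. For the 9 genes, values without P1 replicate 3, inside 1 set or with a term for the set in the fit are given where they end or make a call. Of markers of granule precursors 5 were followed, Zic1, Zic2, Pax6, Barhl1 and Meis1. Their summed level lay between 2148 and 4235 CPM in all 15 libraries, and none of the 5 was at 0 in any group. Such a sum does not measure purity. At P14 it was 3337 to 3670 CPM, beside 6323 to 6875 CPM for the oligodendrocyte markers and 2812 to 3688 CPM for 6 astroglial markers.

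The promoters of 5 of the genes are shown because these genes carried the patterns described below: Atoh1 and Neurod6 were high in E15.5 and MB, Neurod2 was low in MB, and Neurog1 with Neurog2 were nearly absent from MB. The sequences are from RefSeq, build GRCm38.p6, which matched all 9 genes. Each covers the 240 bases that end 11 bases before the annotated start, 5′ to 3′ on the gene's strand, and overlaps no annotated exon. Capitals mark E-boxes, CANNTG, which reads the same on both strands.
Atoh1: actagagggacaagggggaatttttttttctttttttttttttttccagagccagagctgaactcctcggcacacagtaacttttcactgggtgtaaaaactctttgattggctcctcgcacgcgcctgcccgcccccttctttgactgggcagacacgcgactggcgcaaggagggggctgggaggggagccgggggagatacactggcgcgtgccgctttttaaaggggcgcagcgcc
Neurod6: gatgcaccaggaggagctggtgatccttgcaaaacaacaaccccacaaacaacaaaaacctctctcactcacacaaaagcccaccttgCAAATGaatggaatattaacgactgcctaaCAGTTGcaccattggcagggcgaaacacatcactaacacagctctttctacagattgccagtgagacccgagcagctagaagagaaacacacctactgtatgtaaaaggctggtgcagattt
Neurod2: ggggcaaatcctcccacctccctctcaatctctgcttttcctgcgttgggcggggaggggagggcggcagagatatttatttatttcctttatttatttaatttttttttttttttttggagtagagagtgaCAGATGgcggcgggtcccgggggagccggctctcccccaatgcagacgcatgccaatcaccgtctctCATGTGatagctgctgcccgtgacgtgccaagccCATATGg
Neurog1: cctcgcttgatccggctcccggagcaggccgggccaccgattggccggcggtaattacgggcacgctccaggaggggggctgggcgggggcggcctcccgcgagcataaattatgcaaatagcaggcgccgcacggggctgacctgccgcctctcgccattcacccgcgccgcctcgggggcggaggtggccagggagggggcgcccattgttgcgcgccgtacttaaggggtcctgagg
Neurog2: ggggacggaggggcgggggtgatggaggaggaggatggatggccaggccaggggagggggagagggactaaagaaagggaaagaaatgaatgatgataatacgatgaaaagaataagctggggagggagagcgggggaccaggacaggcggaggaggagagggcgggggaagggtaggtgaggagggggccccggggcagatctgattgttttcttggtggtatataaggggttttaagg
The windows lie at chr6:64728875-64729114 on the + strand for Atoh1, chr6:55681274-55681513 on the - strand for Neurod6, and chr11:98329656-98329895 on the - strand for Neurod2. Those of the neurogenins lie at chr13:56252191-56252430 on the - strand (Neurog1) and chr3:127632886-127633125 on the + strand (Neurog2). Neurod6 held 2 E-boxes, CAAATG 162 bases before the start and CAGTTG 132 bases before it. Neurod2 held 3, which were CAGATG at 118 bases, CATGTG at 51 bases and CATATG at 17 bases before the start. Over all 9 genes, 5 promoters held an E-box of any kind, against 64.9% of 27025 promoters of the same length. Of the windows not shown, those of Neurod1 and Nhlh2, both with an E-box, overlap annotated exons. CAGATG or its reverse complement CATCTG was in 3 of the 9, against 14.1% of all promoters, and CAGCTG was in 0 of 9, against 12.2%. These counts describe letters in the window only.

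Atoh1, which marks the granule neuron precursors, fell with age and was highest in the tumour. It lies on chromosome 6 from 64679140 to 64681227 of build mm9, as a single exon of 2088 bases. Its level was 124, 138 and 124 CPM in the E15.5 libraries and 65.4, 53.3 and 24.5 CPM at P1. At P7 it was 23.6, 39.1 and 29.2 CPM, and at P14 11.7, 10.9 and 13.1 CPM. The MB libraries held 322, 282 and 236 CPM. Every MB library lay above every E15.5 library, every E15.5 library above all postnatal ones, and every P14 library below all others, while P1 and P7 overlapped. From E15.5 to P1 the fitted log2 fold change was -1.43 ± 0.28 (SE), with an FDR of 0.000857 by the edgeR quasi-likelihood test, adjusted over all 15259 genes, and without P1 replicate 3 it was -1.12 (FDR 0.00132). From P7 to P14 it was -1.36 ± 0.28 (FDR 0.0125), a call at the threshold of 0.05 that was lost without P7 replicate 2 (FDR 0.0705) or P14 replicate 2 (FDR 0.0709), and with a term for the counting set (-1.28, FDR 0.101). The difference from P1 to P7 was -0.64 ± 0.28 (FDR 0.215), and without P1 replicate 3 it was -0.95 and called (FDR 0.0204). In MB, Atoh1 was 2.18-fold higher than at E15.5 (log2 1.12 ± 0.28, FDR 0.00355), 5.86-fold higher than at P1, 9.13-fold higher than at P7 (FDR 1.28e-06) and 23.5-fold higher than at P14. The excess over E15.5 was 0.91 on the log2 scale and no longer called (FDR 0.135) inside 1 counting set, where E15.5 replicate 2 is the only library of its age and is assumed to vary like the others. In these bulk samples, fewer cells of a type and less RNA per cell cannot be told apart. Of 5 markers of cerebellar nuclei and unipolar brush cells, 4 were lower at P1 than at E15.5, beside 20.9% of all genes. Their summed level was 227 to 492 CPM at E15.5 and 141 to 173 CPM at P1. The part of these cells in the changes of the 9 genes was not tested.

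**Figure D1:**
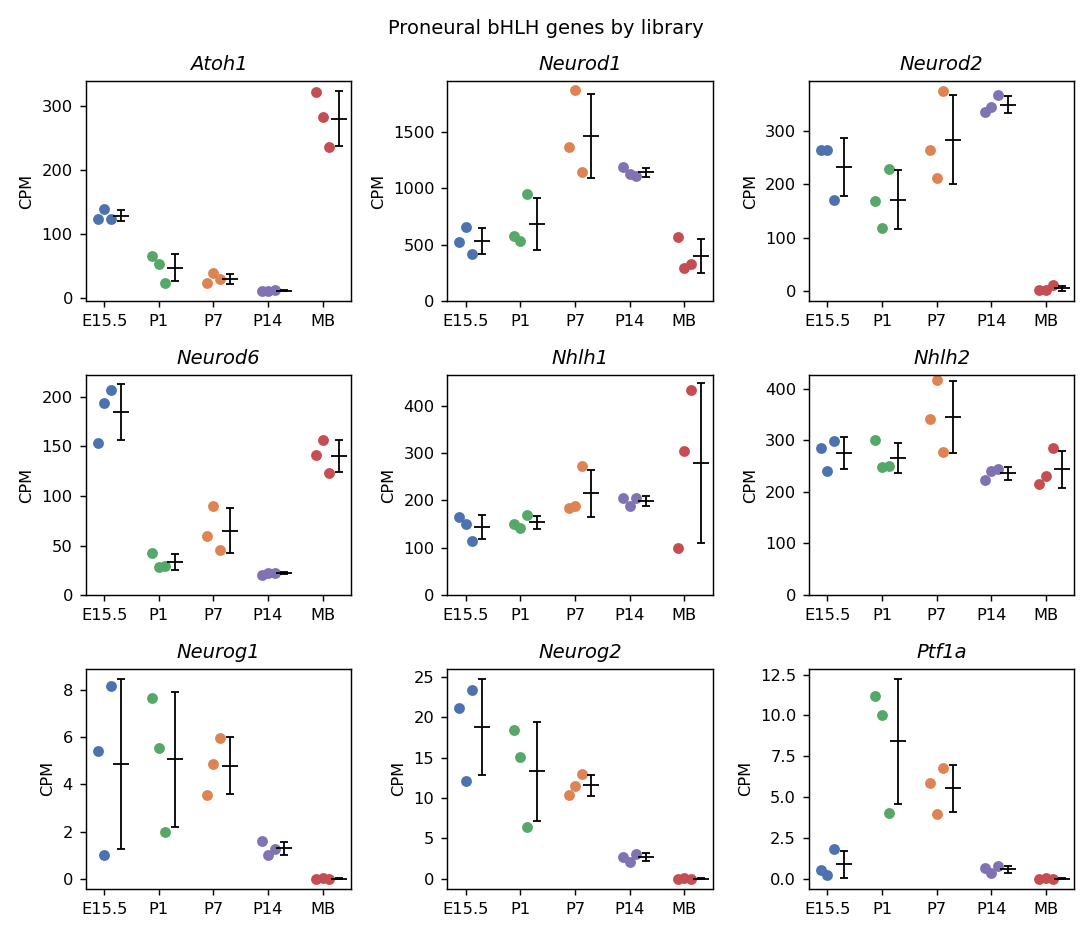
Level of each of the 9 genes in CPM (vertical axis, linear, a scale of its own for each gene) in the libraries of the 5 groups (horizontal axis). Points are libraries in the order of replicates 1 to 3, with the mean and SD (n = 3) beside them. Atoh1 and Neurod6 are high at E15.5 and in MB, Neurod1 and Neurod2 are high at P7 and P14, and Neurog1, Neurog2 and Ptf1a lie at or near 0 in MB.

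Neurod6, a member of the NeuroD family best known from forebrain neurons, followed Atoh1 in outline but with an added rise at P7. It lies on chromosome 6 from 55627812 to 55631257 (mm9, minus strand). Its level was 153, 193 and 207 CPM at E15.5, 42.5, 27.9 and 29.4 CPM at P1, 60.1, 89.7 and 45.2 CPM at P7, and 20.8, 22.5 and 22.4 CPM at P14. The MB libraries held 142, 156 and 123 CPM. E15.5 and MB overlapped, and both stood above all postnatal libraries. Among the postnatal groups the order was P7, P1, P14, with no overlap between neighbours. Neurod6 was 5.55-fold lower at P1 than at E15.5 (log2 -2.47 ± 0.24, FDR 2.32e-06; -2.39 without P1 replicate 3). The rise to P7 was 0.97 ± 0.23 (FDR 0.0378) and was lost in 8 of 14 alternatives, among them leaving out P1 replicate 3 (0.89, FDR 0.0681). The fall to P14 was -1.57 ± 0.24 (FDR 0.00552). From P1 to P14 the difference was -0.60 ± 0.23 (FDR 0.11), and inside 1 counting set it was -0.62 and called (FDR 0.0303). In MB it was 4.22-fold higher than at P1, 2.16-fold higher than at P7 (FDR 0.00164) and 6.41-fold higher than at P14, and against E15.5 the difference was -0.40 ± 0.23 (FDR 0.166). The part of forebrain cells in the level of Neurod6 was not tested.

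Neurod1, a driver of neuronal differentiation, was the most abundant of the 9 per kilobase of transcript in every group mean. It lies on chromosome 2 from 79292678 to 79296908 (mm9, minus strand). It stood at 523, 654 and 422 CPM at E15.5 and 575, 536 and 953 CPM at P1. The P7 libraries held 1369, 1868 and 1146 CPM, the P14 libraries 1189, 1126 and 1107 CPM, and the MB libraries 573, 295 and 330 CPM. All P7 and P14 libraries lay above all others, P7 and P14 overlapped, and E15.5, P1 and MB overlapped pairwise. The 4 ages differed (FDR 0.00237). The step from P1 to P7 was 1.09 ± 0.29 (FDR 0.0546), just outside the threshold. Without P1 replicate 3, the highest of its group, it was 1.40 (FDR 0.0195), and DESeq2 called it as well (FDR 0.0119). From P1 to P14 the difference was 0.73 ± 0.29 (FDR 0.12), and it was called without P1 replicate 3 (1.04, FDR 0.0289) and inside 1 counting set (0.71, FDR 0.0397). In MB, Neurod1 was 3.66-fold lower than at P7 (log2 -1.87 ± 0.30, FDR 0.000178) and 2.86-fold lower than at P14 (FDR 0.00058). The difference from P1, -0.79 ± 0.29 (FDR 0.0436), was lost without P1 replicate 3 (-0.48, FDR 0.24), MB replicate 2 (FDR 0.164) or MB replicate 3 (FDR 0.134). Against E15.5 it was -0.42 ± 0.29 (FDR 0.245), but Neurod1 was called lower without MB replicate 1 (-0.77, FDR 0.0346) and inside 1 counting set, which lacks that library (-1.06, FDR 0.0245).

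Neurod2, a close relative of Neurod1 active in postmitotic neurons, was present at every age and lost from the tumour libraries. It lies on chromosome 11 from 98186729 to 98190962 (mm9, minus strand). Its level was 263, 265 and 169.9 CPM at E15.5, 168, 118 and 228 CPM at P1, 264, 211 and 374 CPM at P7, and 336, 344 and 366 CPM at P14. In MB it was 2.50, 2.44 and 11.7 CPM. The ages overlapped apart from P1 and P14 and from E15.5 and P14, and no difference among the 4 ages passed the test (FDR 0.238). Every MB library lay far below every other library. Neurod2 in MB was lower by 42.3-fold against E15.5, 31.2-fold against P1, 51.5-fold against P7 and 63.3-fold against P14 (log2 -5.40 ± 0.55, -4.96 ± 0.54, -5.69 ± 0.56 and -5.98 ± 0.56). The FDR was 4.15e-06 or lower in these 4 comparisons, and all 4 were called in each of 15 alternatives. Set beside its relative per kilobase of transcript, the level in MB was 146 ± 55.5 CPM (SD, n = 3) for Neurod1 and 1.77 ± 1.70 CPM for Neurod2. At P14 these levels were 418 ± 15.8 and 111 ± 5.09 CPM.

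Nhlh1 and Nhlh2, paired neuronal bHLH genes expressed as precursors leave the cell cycle, were not called over the 4 ages, nor was Neurod2. Nhlh1 (chromosome 1, 173982423 to 173987704, mm9) had 165, 151 and 115 CPM at E15.5, 151, 141 and 169 CPM at P1, 183, 189 and 273 CPM at P7, and 206, 188 and 204 CPM at P14. The 4-age test gave an FDR of 0.372. The MB libraries were spread most, at 99.4, 305 and 434 CPM: replicate 1 lay below every other library and replicates 2 and 3 above every other. Nhlh1 was called higher in MB than at E15.5 (log2 0.96 ± 0.36, FDR 0.0354), a call lost in 8 of 14 alternatives, among them the set term (0.40, FDR 0.374). Without MB replicate 1 it was also called higher than at P1 (1.26, FDR 0.000276), P7 (0.78, FDR 0.00984) and P14 (0.89, FDR 0.00292). Inside the counting set without this replicate it was 1.27 against P1 (FDR 0.000216) and 0.92 against P14 (FDR 0.00101), and with the set term 1.02 against P1 (FDR 0.0159), while inside the counting set that holds this replicate and P7 it was lower, at -1.07. MB replicate 1 was the only tumour library in its counting set.

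Nhlh2 (chromosome 3, 101814068 to 101819415, mm9) had 285, 239.6 and 299 CPM at E15.5, 299.5, 248 and 251 CPM at P1, 341, 416 and 277 CPM at P7, and 222, 240.0 and 244 CPM at P14. In MB it had 215, 231 and 284 CPM. Neighbouring ages overlapped except P7 and P14, and the 4-age test gave an FDR of 0.0735. The only call was MB below P7, -0.50 ± 0.18 (FDR 0.0398), and it was lost in 9 of 15 alternatives, including leaving out P7 replicate 1 (FDR 0.118) or MB replicate 1 (FDR 0.0986). With the set term the value was -0.49 (FDR 0.122). Inside 1 counting set, with MB replicate 1 as the only tumour library, it was -0.64 and the call was lost as well. The difference between MB and P14 was 0.05 ± 0.18.

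The neurogenins Neurog1 and Neurog2, determination factors that act upstream of NeuroD genes in many neuronal lineages, were low at all ages and nearly absent from the tumour. Neurog2 (chromosome 3, 127336054 to 127338549, mm9) had 21.1, 12.1 and 23.3 CPM at E15.5, 18.4, 15.1 and 6.44 CPM at P1, 10.3, 11.5 and 12.9 CPM at P7, and 2.73, 2.11 and 3.11 CPM at P14. The P14 libraries lay below every other library from normal cells, and the earlier ages overlapped. The MB libraries held 0, 2 and 0 counts, against 1108 counts at P7. The ratio of scaled levels, P7 over MB, was 524 with an exact 95% interval of 145 to 4329, against E15.5 it was 947 (262 to 7828), and against P14, where the level was lowest, 120 (32.8 to 995). Such intervals cover counting error only. Neurog2 fell from P7 to P14, with a log2 fold change of -2.13 ± 0.39 (FDR 0.00873), a call lost without P14 replicate 2 (FDR 0.0567) and with the set term, where the value was -1.40 (FDR 0.226). From P1 to P14 the change was -2.33 ± 0.39 (FDR 0.00418).

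Neurog1 (chromosome 13, 56351866 to 56353524, mm9, a single exon) had 5.41, 1.00 and 8.17 CPM at E15.5, 7.64, 5.54 and 2.00 CPM at P1, 3.54, 4.86 and 5.97 CPM at P7, and 1.58, 1.02 and 1.27 CPM at P14. E15.5 replicate 2, with 12 counts, was as low as the P14 libraries. In MB there were 0, 1 and 0 counts, against 452 at P7, a ratio of 427 (76.3 to 16911). Against P14 the ratio was 117 (20.6 to 4656). From P1 to P14 the difference was -1.96 ± 0.59 (FDR 0.0505), just outside the threshold, and it was called without P1 replicate 3 (-2.35, FDR 0.0118), inside 1 counting set (-1.98, FDR 0.018) and with the set term (-1.96, FDR 0.0209). From E15.5 to P1 the difference was 0.03 ± 0.56 (FDR 0.977), and Neurog1 was called higher inside 1 counting set, where E15.5 replicate 2 stands alone for its age (2.32, FDR 0.0478), and with the set term (2.11, FDR 0.0411).

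Ptf1a, the determination gene of cerebellar GABAergic neurons, peaked at P1 and P7. It lies on chromosome 2 from 19367290 to 19369128 (mm9). Its level was 0.567, 0.251 and 1.81 CPM at E15.5, 11.2, 10.002 and 4.03 CPM at P1, 5.85, 3.97 and 6.78 CPM at P7, and 0.641, 0.332 and 0.769 CPM at P14. P1 and P7 overlapped, as did E15.5 and P14, and every P1 and P7 library lay above every other. Ptf1a was 8.74-fold higher at P1 than at E15.5 (log2 3.13 ± 0.57, FDR 0.000471), a call kept in all 15 alternatives, with 3.46 without P1 replicate 3. From P7 to P14 it fell, with a log2 fold change of -3.25 ± 0.58 (FDR 0.00873), a call lost without P14 replicate 2 (FDR 0.0536) and with the set term, where the value was -1.42 (FDR 0.587). In MB there were 0, 1 and 0 counts, and the ratio P7 over MB was 491 (87.8 to 19450), and that of P1 over MB 754 (135 to 29838). Against E15.5, which held 85 counts in all, the ratio was 106 (18.5 to 4241). That call was lost inside 1 counting set (FDR 0.123), where E15.5 replicate 2 held 3 counts.

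**Figure D2:**
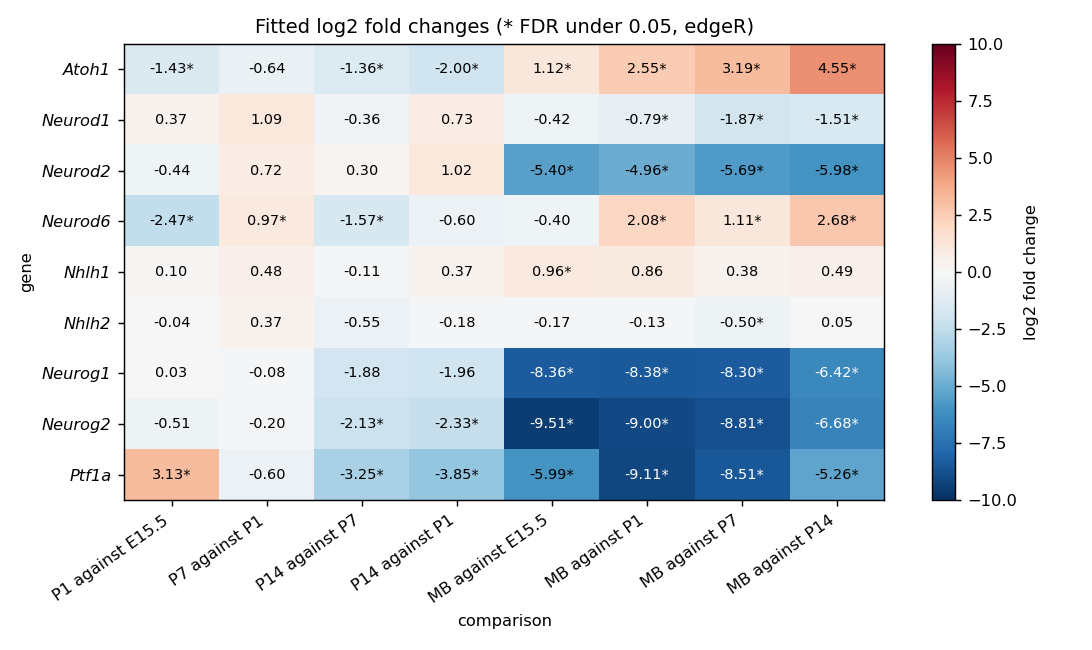
Fitted log2 fold change of each gene (rows) in the 8 comparisons (columns), in colour and as a number, with a star at an FDR under 0.05. Atoh1 is higher and Neurod2, Neurog1, Neurog2 and Ptf1a are lower in MB in all 4 tumour comparisons; the fitted values of the last 3 genes in MB rest on 1 or 2 counts and are not bounds.

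Counted together, 3 of the 9 genes were called at P1 against E15.5 (Ptf1a higher, Atoh1 and Neurod6 lower), where 46.3% of all tested genes were called, 25.4% in the upward and 20.9% in the downward direction. At P7 against P1 the only call was Neurod6, with 3.15% called among all genes. Without P1 replicate 3 the calls in that step were Atoh1 and Neurod1. At P14 against P7 there were 4, all lower (Atoh1, Neurod6, Neurog2 and Ptf1a), against 10.3% of all genes, or 4.51% called lower. At P14 against P1 there were 3, all lower (Atoh1, Neurog2 and Ptf1a), against 8.94% of all genes, or 5.31% called lower, and without P1 replicate 3 Neurog1 lower and Neurod1 higher joined them. In that comparison the libraries of all 9 genes were without overlap between the ages, as were those of 51.4% of all genes. No P7 library shared a counting set with a P1 or P14 library, so in the steps to and from P7 age and set cannot be told apart.

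In each tumour comparison more of the 9 were called than in any comparison of a pair of ages. Among all genes the share called was above that of each comparison between postnatal ages, but at MB against P1 and MB against P7 it was below that of P1 against E15.5. At MB against E15.5 there were 6 (50.1% of all genes), at MB against P1 7 (38.7%), at MB against P7 8 (34.5%) and at MB against P14 7 (50.0%). In each of these, 2 of the called genes were higher in MB: Atoh1 with Nhlh1 against E15.5, and Atoh1 with Neurod6 against each postnatal age. Calls of that direction made up 26.0%, 16.1%, 13.7% and 22.9% of all genes in the same order. The median log2 fold change of the 9 against P7 was -1.87, beside 0.02 over all genes. Neurog1, Neurog2 and Ptf1a, with 1, 2 and 1 counts in MB, passed the filter only through the ages. They could thus come out only lower or not called in MB, and they enter these counts and this median. Neurod2, Neurod1, Nhlh2, Nhlh1, Neurod6 and Atoh1 stood at -5.69, -1.87, -0.50, 0.38, 1.11 and 3.19 against P7. Scaling by library totals in place of TMM moved all genes together, by 0.22 on the log2 scale at P1 against E15.5, -0.13 at P7 against P1, -0.18 at MB against P1 and -0.11 at MB against P14. The share of calls that were higher then went from 54.8% to 70.2% at P1 against E15.5, from 44.6% to 19.0% at P7 against P1, from 40.6% to 30.1% at P14 against P1 and from 41.6% to 27.4% at MB against P1. Over the 4 ages 6 of the 9 were called, against 55.7% of all genes, and the other 3 were Neurod2, Nhlh1 and Nhlh2. The 4 tumour comparisons share the MB libraries, and neighbouring steps of age share an age.

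The makeup of the group was compared per kilobase of transcript. The summed level of the 9 genes was highest at P7, at 872 ± 132 CPM per kilobase (SD, n = 3), and 698 ± 11.5 at P14. It was 569 ± 51.3 at E15.5, 501 ± 89.4 at P1 and 533 ± 23.5 in MB. Atoh1 made up 10.9% ± 0.57 of this sum at E15.5 and 4.83% ± 2.49 at P1. Its share then fell to 1.67% ± 0.24 (P7) and 0.817% ± 0.073 (P14), and in MB it was 25.2% ± 4.39. Neurod1 went from 34.1% ± 4.43 at E15.5 to 60.8% ± 6.62 at P7 and 59.9% ± 1.61 at P14, and was 27.4% ± 10.2 in MB. Atoh1 and Neurod1 thus had similar mean shares in MB, while at each age the lowest share of Neurod1 was above the highest of Atoh1. Neurod2 made up 15.9% ± 0.84 at P14 and 0.324% ± 0.30 in MB. Among 14494 genes ranked by level per kilobase, Neurod1 was rank 27 at P7 and rank 300 in MB, while Atoh1 was rank 354 in MB and rank 9122 at P14.

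**Figure D3:**
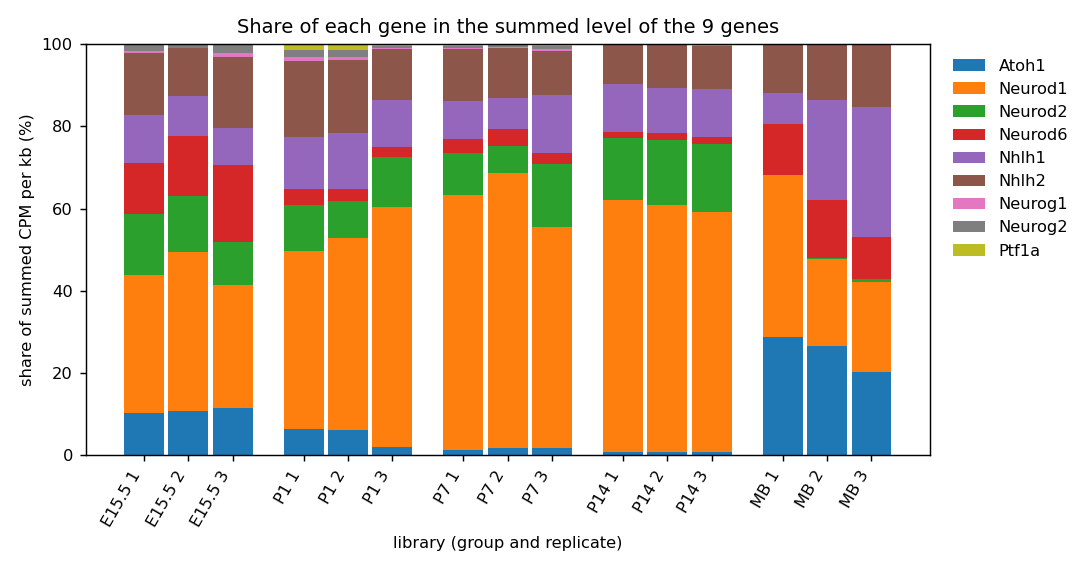
Share of each of the 9 genes in their summed level per kilobase of transcript (vertical axis, percent) in each of the 15 libraries (horizontal axis, group and replicate). The share of Atoh1 is largest in MB (25.2% on average) and smallest at P14 (0.817%), and that of Neurod1 is above 50% in all P7 and P14 libraries and in P1 replicate 3.

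Over the 15 libraries the genes fell into patterns, given as correlations of log2 CPM across libraries that share groups. Neurog1 and Neurog2 were most alike (r = 0.97), followed by Neurog1 and Ptf1a (0.89), Atoh1 and Neurod6 (0.87) and Neurod2 and Neurog2 (0.86). Neurod2, Neurog1, Neurog2 and Ptf1a were all lowest in MB, and the MB libraries enter each correlation among them. From P1 to P14 Neurod2 and Neurog2 moved apart. The mean of Neurod2 went from 172 to 349 CPM and that of Neurog2 from 13.3 to 2.65 CPM. Atoh1 and Neurod1 ran in opposite directions (-0.82). The genes nearest to Atoh1 among 13453 candidates were Btbd11 (0.98), Mb21d2 (0.98) and Poli (0.97). Btbd11 had 206 CPM at E15.5, 26.7 at P14 and 332 in MB, close to Atoh1 in outline. Neurod1 was nearest to Peli2 (0.97), Zfp521 (0.97) and Tpm1 (0.96). For Neurod2 they were 6430571L13Rik, 6430548M08Rik and Slc12a8 (0.99 each), and for Neurod6 Mtfmt, Sf3b2 and Kat2a (0.96 each). Neurog2 was nearest to Tfap2b (0.99), Ucma (0.99) and Lhx5 (0.99), and Neurog1 to Neurog2 (0.97), Kirrel2 (0.97) and Smpdl3b (0.96). Ptf1a was nearest to Rxrg (0.99), Nphs1 (0.98) and Kirrel2 (0.96). Tfap2b, Lhx5 and Kirrel2 are known from the Ptf1a lineage and were also in the list described next. Nhlh1 was nearest to Zfp865 (0.94), Zfp628 (0.92) and Dlgap3 (0.91), and Nhlh2 to Ezr (0.82), Nanos1 (0.76) and Thap2 (0.73).

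Genes of the Ptf1a lineage, a list of 12 transcription factors, GABA and glycine genes and others, were examined beside Ptf1a and the neurogenins. At P1 against E15.5, 8 of 12 were lower and 3 higher, so that most moved against Ptf1a itself: Skor2, a corepressor of Purkinje cells, was -3.48 ± 0.55 and Gad2, a GABA-synthesising enzyme, -2.21 ± 0.29. The 3 that rose with Ptf1a included Kirrel2, a known Ptf1a target, at 1.98 ± 0.49 (FDR 0.00423), and Prdm13, a target that acts with it, at 2.29 ± 0.85 (FDR 0.0379), a call lost in 5 of 14 alternatives. Without P1 replicate 3, 6 were lower and 3 higher. With all libraries, 20.9% of all genes were called lower in this comparison and 25.4% higher. At P14 against P7, 5 of 12 were lower, beside 4.51% of all genes, and the others did not pass the test. Leaving out 1 P14 library gave 1 to 3 lower genes, and leaving out P7 replicate 2 or 3 gave 3 or 2. With the set term edgeR called none of the 12, while 2 had an unadjusted p under 0.05, and DESeq2 without that term called 7. The largest falls were in Kirrel2 (-2.63 ± 0.51, FDR 0.00952) and Tfap2b (-2.28 ± 0.34, FDR 0.00552). The call of Kirrel2 was lost without P14 replicate 2 (FDR 0.0592) and with the set term (-0.96, FDR 0.493), and that of Tfap2b with the set term (-2.36, FDR 0.0529).

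In MB 9 of the 12 were lower than at P7, where 34.5% of all genes were called in either direction. The median over the list was -7.75, beside 0.02 over all genes. Pax2, Skor2, Tfap2b and Kirrel2 had 0 to 4 counts in each MB library and passed the filter only through the ages. Such genes could come out only lower or not called in MB, which limits what the count and the median show. Pax2, a marker of GABAergic interneuron precursors, had 5676 counts at P7 and 1 in MB, a ratio of 5365 (962 to 211936). Tfap2b was -10.40 ± 0.59 (FDR 1.41e-08), and Skor2, with 479 counts at P7, had 0 in every MB library, which is at least 151-fold lower when the group as a whole is set at a floor of 3 counts. The other 3 were Lhx1, Prdm13 and Tfap2a, named after their values were seen. Lhx1 had 369, 318 and 372 CPM in the MB libraries. Prdm13 had 0.278, 14.5 and 19.7 CPM in MB replicates 1 to 3, and Tfap2a had 0.0793, 0.0733 and 31.9 CPM, so that single tumour libraries held levels near those at P7. Of the 6 markers of GABAergic interneurons, all from this list, the sum was 320 to 374 CPM in MB, nearly all of it Lhx1. It was 553 to 663 CPM at E15.5, 336 to 400 CPM at P1, 410 to 677 CPM at P7 and 263 to 356 CPM at P14. The P1 and P14 ranges overlapped that of MB. The 6 Purkinje cell markers summed to 51.0 to 90.8 CPM in MB and 388 to 991 CPM at P7. Both sums were lower in MB than at P7, as were Ptf1a, Neurog1 and Neurog2, and the part of these cells in the result was not tested.

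**Figure D4:**
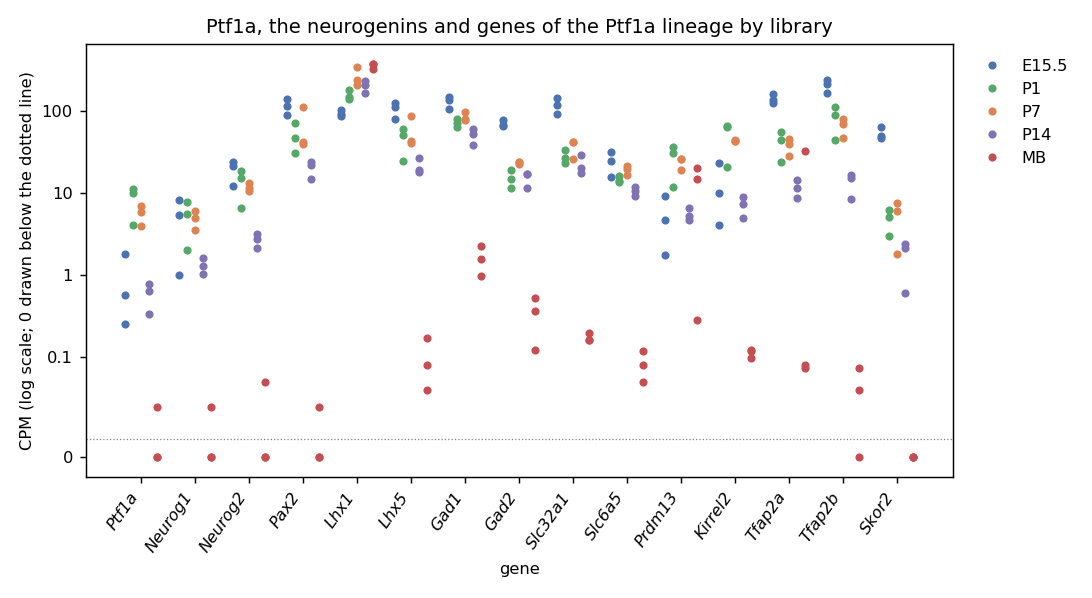
Level in CPM (vertical axis, logarithmic, with 0 drawn below the dotted line) of Ptf1a, Neurog1, Neurog2 and the 12 genes of the Ptf1a lineage list (horizontal axis), 1 point per library coloured by group. MB points lie below all others for most genes, Lhx1 is the exception with 318 to 372 CPM in MB, and Prdm13 and Tfap2a are split between MB libraries.

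Genes of the Atoh1 lineage were called in both directions at P1 against E15.5, as were all genes, of which 25.4% were called higher and 20.9% lower. Of 11, 3 were higher and 2 lower at P1 against E15.5, and without E15.5 replicate 3 only 1 was higher. Lhx9 and Lhx2, LIM homeobox genes of rhombic lip derivatives, were lower by -4.57 ± 0.54 and -4.35 ± 0.57. Barhl2, a homeobox gene downstream of Atoh1, was higher by 2.17 ± 0.32, as was Insm1 by 1.09 ± 0.34 (FDR 0.0175, lost without E15.5 replicate 3, FDR 0.0973). At P14 against P7 the only call was Gli2, a mediator of hedgehog signalling, lower by -1.32 ± 0.33 (FDR 0.0228), and it was lost without P7 replicate 2 (FDR 0.0763) and in 5 other alternatives. In MB against P7, 2 were higher and 3 lower, beside 34.5% of all genes called in either direction and 13.7% called higher. Lhx2 (4.17 ± 0.56) and Barhl1 (1.30 ± 0.25) were higher, Lhx9 (-3.80 ± 0.80) and Pax6 (-1.71 ± 0.29) lower. The levels of Lhx9 were low in both groups, with means of 0.823 CPM at P7 and 0.0563 CPM in MB. Inside 1 counting set, with MB replicate 1 as the only tumour library, Barhl1 (0.83, FDR 0.128) and Pax6 (-1.04, FDR 0.0891) were not called.

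Of the 7 partners and antagonists of the proneural factors, 4 were called at P1 against E15.5, all higher, beside 46.3% of all genes. At MB against P1 there were also 4, of which 1 was higher and 3 lower. The E protein genes Tcf4 and Tcf12 were higher at P1, by 1.39 ± 0.35 (FDR 0.00486) and 0.54 ± 0.17 (FDR 0.0161), the second lost in 5 of 15 alternatives, while Tcf3 was at -0.35 ± 0.23 (FDR 0.237). Id1 and Id3, which code for antagonists, were higher by 2.33 ± 0.41 (FDR 0.000355) and 3.12 ± 0.57 (FDR 0.000464), from 12.03 and 8.97 CPM at E15.5. Id2 was at -0.55 ± 0.32 and Id4 at 0.49 ± 0.29, both outside the threshold. The summed level of 6 astroglial markers rose over the same interval, from 115 to 176 CPM at E15.5 to 1763 to 3071 CPM at P1. That of 6 endothelial markers rose from 11.2 to 30.5 CPM to 376 to 567 CPM. The sums for oligodendrocytes and for microglia and macrophages rose too, and the part of these cell types in the Id changes was not tested. At P14 against P7, 1 of the 7 was called, Tcf12 (-0.58 ± 0.17, FDR 0.0388, lost in 9 of 14 alternatives). Tcf3, Tcf4, Id1, Id2, Id3 and Id4 stood at -0.33, -0.35, 0.43, -0.11, 1.08 and 0.42 on the log2 scale. In MB against P7 the call was Id4, from 65.2 ± 25.6 to 4.74 ± 1.25 CPM (log2 -3.77 ± 0.33, FDR 6.92e-07). Tcf3, Tcf4, Tcf12, Id1, Id2 and Id3 stood at 0.52, -0.09, -0.43, -0.42, -0.02 and -1.40.

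Among 13 other neural bHLH genes, of which 12 were tested, the counts were 5 higher and 3 lower at P1 against E15.5. Of all genes 25.4% were called higher and 20.9% lower there. Olig1, of the oligodendrocyte lineage, rose by 4.62 ± 0.53 and Hes1, a Notch target, by 3.27 ± 0.38. Bhlhe23 was lower (-6.46 ± 1.05), with 132, 7 and 64 counts in E15.5 replicates 1 to 3 and 1, 1 and 0 counts at P1. Olig3 (-3.66 ± 0.39), a factor of the rhombic lip, was lower as well, and went from 25.9 ± 0.34 to 2.05 ± 0.39 CPM. Like Atoh1, Olig3 was then high in the tumour, at 88.4, 44.2 and 135 CPM against 5.90, 8.28 and 3.97 CPM at P7 (3.88 ± 0.39, FDR 2.27e-06). At P14 against P7 Atoh7 was higher (2.91 ± 0.52, from 0.192 to 1.41 CPM), a call lost with the set term (FDR 0.0752). In MB against P7, 2 were higher and 4 lower, beside 34.5% of all genes called in either direction. Without MB replicate 1, 4 were higher. Olig2 was the other higher gene (1.21 ± 0.41, FDR 0.0316), a call lost in 6 alternatives, as without MB replicate 2 (FDR 0.11), and with its sign turned in 2 more. The lower genes included Atoh8 (-2.71 ± 0.38).

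The maturation and division lists set these changes beside the state of the cells. Of 8 genes of granule neuron maturation, 7 were higher at P14 than at P7, while Atoh1, Neurod6, Neurog2 and Ptf1a were lower. Among all genes 10.3% were called in that step, with 4.51% called lower. Leaving out 1 library of either age gave 1 to 4 higher genes, the fewest without P7 replicate 2, and the set term gave 2. In the same step the summed level of 6 oligodendrocyte markers went from 747 to 1766 CPM at P7 to 6323 to 6875 CPM at P14, and that of 6 endothelial markers from 285 to 348 CPM to 691 to 725 CPM. Their part in the changes from P7 to P14 was not tested. Cbln3, a synaptic gene of granule neurons, was 4.42 ± 0.88 (FDR 0.0103), a call lost without P7 replicate 2 (FDR 0.0652). Gabra6, a GABA receptor subunit of mature granule neurons, was 4.55 ± 1.11 (FDR 0.025), a call lost in 7 of 14 alternatives, among them leaving out any 1 of the 6 libraries (FDR 0.0558 to 0.102). Of 7 genes of division and Sonic hedgehog signalling, 4 were lower at P14 than at P7, among them Mki67 (-1.66 ± 0.32, FDR 0.00952), a call lost without P7 replicate 2 (FDR 0.053) or P14 replicate 2 (FDR 0.0592) and with the set term (FDR 0.0679). Without P7 replicate 2 or P14 replicate 2, or with a term for the counting set, none of the 7 was called by edgeR, while 6, 4 and 6 of them had an unadjusted p under 0.05, and DESeq2 on all libraries called 4. In MB against P7, 4 of these 7 were higher (1 inside 1 counting set), among them the hedgehog targets Gli1 (2.07 ± 0.38) and Ccnd1 (1.99 ± 0.35), in the same comparison as the higher Atoh1. Of the 8 maturation genes, 2 were lower in MB than at P7 and 0 higher, beside 34.5% of all genes called in either direction. Slc17a7, the vesicular glutamate transporter of granule neurons, was lower (-6.20 ± 0.64), in the same comparison as the lower Neurod2. It had 1.55, 0.977 and 0.640 CPM in MB against 83.1, 70.1 and 80.0 CPM at P7. The other was Gabra6, at -3.73 ± 1.21 (FDR 0.0291), a call lost in 5 of 15 alternatives.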

How the data were processed

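Poly(A) RNA was sequenced from TruSeq v2 libraries, a kit that does not mark strand, on a HiSeq, per the labels' protocols. The submitters' processing notes name Trimmomatic, TopHat, StringTie, HTSeq and build mm9, without versions. The authors deposited raw read counts per gene, per start-site model and per transcript. Lines that name no gene held 44.6% to 60.5% of records and were left out. Symbols matched 20358 of 21889 Ensembl IDs.

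Counts per gene were tested with edgeR 4.0.16 in R 4.3.3: filterByExpr (minimum count 10, total 15), TMM, 1 quasi-likelihood fit of 15 libraries with 10 residual degrees of freedom, and Benjamini-Hochberg FDR under 0.05 over 15259 genes, in 8 contrasts and a test of 4 ages. CPM uses TMM library sizes, and log2 CPM a prior count of 2. SE is the log2 fold change over the root of F. DESeq2 1.42.0, other tables, scalings and left-out libraries were alternatives. The code was tested on simulated data. With 30 same-numbered pairs, 7 correlated over 0.1 (-0.31 to 0.33), so numbers were not taken as pairs. Named were all 9 genes, the 3 most correlated with each (mean of at least 1 CPM), all E protein and Id genes, and at most 2 called genes in each direction from other lists. The members and lists were chosen with earlier results of these data known. Some genes of these lists are not reported here.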

Additional observations from a re-analysis of the deposited data

How the results depend on the processing

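The 72 fold changes of the 9 genes had 1037 values under the alternatives. Of 39 called results, 30 kept the call in all of theirs, 9 lost it in at least 1, and none turned direction. The causes of the changes below were not tested. The 1 gene called at P7 against P1 became 0 in edgeR with library totals in place of TMM, with a counting-set term or with the groups fitted alone, and 2 with DESeq2; 3 of the 9 had an unadjusted p under 0.05. At P14 against P7 the count of 4 became 1 with the set term. At P14 against P1 the count of 3 became 7 with the groups fitted alone and 6 inside 1 counting set, and at MB against E15.5 the start-site table, which holds 6 of the 9, gave 3. Leaving out 1 library gave 0 to 2 genes at P7 against P1 (2 without P1 replicate 3, 0 without P1 replicate 2 or P7 replicates 1 or 2), 1 to 5 at P14 against P7 (1 without P14 replicate 2) and 3 to 5 at P14 against P1 (5 without P1 replicate 3). Over all genes, the calls under alternatives with all libraries ran from 197 to 1209 at P7 against P1 (480 as reported), 295 to 3838 at P14 against P7 (1574) and 1241 to 4714 at P14 against P1 (1364). With 1 library left out they ran from 9 to 888, 125 to 1077 and 154 to 2714.

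With a replicate block the count at P7 against P1 was 0, and it was within 1 of the reported count in the other comparisons. The numbers do not pair the samples: they share only a number.

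Values that turned sign belong to differences outside the threshold, apart from Olig2. With the set term these were Neurod2 (-0.52) and Neurog1 (0.60) at P14 against P7, Nhlh1 (-0.62), Neurog2 (0.034) and Id2 (0.072) at P1 against E15.5, Id1 (-0.049) and Id2 (0.77) at P14 against P7, and Nhlh1 (-0.46), Id2 (0.48) and Olig2 (-0.050) at MB against P7. Inside 1 counting set they were Nhlh2 (0.15) and Neurog2 (0.13) at P1 against E15.5, Nhlh2 (0.11) at MB against E15.5, and Nhlh1 (-1.07), Tcf3 (-0.21), Tcf4 (0.11), Id2 (0.67) and Olig2 (-0.27) at MB against P7. With library totals Nhlh2 was 0.18 at P1 against E15.5 and -0.061 at MB against P14. Id2 at MB against P7 was 0.0097 with the groups fitted alone and 0.013 with DESeq2.
With 1 library left out, Nhlh1 ran from -0.087 to 0.21 at P1 against E15.5, -0.24 to 0.095 at P14 against P7 and -0.089 to 0.78 at MB against P7. Nhlh2 ran from -0.14 to 0.0042 at P1 against E15.5 and -0.077 to 0.13 at MB against P14. Neurog1 ran from -0.43 to 0.57 at P1 against E15.5 and -0.46 to 0.34 at P7 against P1, and Neurog2 from -0.52 to 0.11 in the latter. Tcf4 ran from -0.61 to 0.26 at P14 against P7 and -0.32 to 0.52 at MB against P7, and Id2 from -0.49 to 0.20 at MB against P7. At 0 to 2 counts per library, depth limits Neurog1, Neurog2 and Ptf1a in MB.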
